A study of Mus musculus with 7 samples.

Results

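The 10 genes of the AP-1 and immediate early response described here were measured in sorted tumour cells of the mouse colon: the Fos family genes Fos, Fosb, Fosl1 and Fosl2, the Jun family genes Jun, Junb and Jund, and Atf3, Egr1 and Btg2. The members are all probe sets of the deposited table that the platform annotation pairs with exactly 1 gene symbol from this list, which gave 15 of 28898 such probe sets and 10 of 17097 genes. Each of 5 members had 1 probe set and each of the other 5 had 2. The arrays were Affymetrix mouse expression arrays, 4 from WT and 3 from KO animals. Both groups carried a Tomato reporter allele of Mex3a, a tamoxifen-inducible Cre under the Villin promoter, which is active in gut epithelium, and 1 floxed Apc allele. KO animals also carried a floxed Mex3a allele opposite the Tomato allele, and WT animals a wild-type one. All received 4 tamoxifen injections and then 2% dextran sulfate sodium, a polymer that inflames the colon, for 5 days. Colon adenomas were taken after 2 months, counted from the end of that treatment in the design text and from tamoxifen induction in the growth protocol, and dissociated with collagenase, and 2000 cells positive for Epcam and Tomato were sorted, so every sample had passed through enzymatic dissociation and sorting, and undissociated tissue was not analysed here. Animal ages were not given in the labels or design text. No label ties an array to an animal of its own, so each p-value reflects the variation among these 7 arrays, part of which may be technical.

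AP-1 is a dimer of proteins with a basic DNA-binding region and a leucine zipper. Fos family proteins bind DNA only as partners of a Jun protein, while Jun proteins can also pair with each other, and Atf3 pairs with Jun proteins and often represses. Fos, Fosb, Jun, Junb, Atf3, Egr1 and Btg2 are immediate early genes: growth factor and stress kinases switch them on within minutes, without new protein synthesis, and their transcripts are short-lived. In the gut, AP-1 is known as a partner of Wnt signalling in tumour formation. The same genes are also known to be induced when tissue is digested enzymatically into single cells.

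The promoters were searched for the cyclic AMP response element, a sequence known to be bound by proteins of the Creb and Atf families, and for other elements known in immediate early genes. RefSeq promoters (GRCm38.p6) matched 8 of the 10 members by symbol, and Fosl1 and Egr1 had none. The half-site TGACG, searched on both strands in the 250 bases before the start site, was found in 5 of 8, Fos, Fosb, Junb, Atf3 and Btg2, against 17.8% of 32851 promoters of the same length. The full element TGACGTCA, which contains a half-site on each strand, was found in 1 of 8, Btg2, against 1.55%. The AP-1 site TGANTCA and the CArG box of serum response factor were found in 0 of 8 windows, against 6.75% and 1.47% of promoters. The Egr site GCGNGGGCG was found in 3 of 8, Fosb, Fosl2 and Btg2, against 4.70%. The heat shock element GAANNTTC was found in 2 of 8, Fosl2 and Jun, against 6.69%. The CCAAT box was found in 3 of 8, against 33.8%, and TATAAA in 1 of 8, against 12.4%. Sites farther upstream than the 250 bases, and variant forms of a site outside these patterns, were not counted. The upstream windows of Fosb, Atf3 and Btg2, the members with the lowest KO means relative to WT, are shown with that of Fos, whose group means were nearly equal. Capitals mark the half-sites, which were present in both kinds of member.
Fosb (chr7:19310046-19310295, minus strand): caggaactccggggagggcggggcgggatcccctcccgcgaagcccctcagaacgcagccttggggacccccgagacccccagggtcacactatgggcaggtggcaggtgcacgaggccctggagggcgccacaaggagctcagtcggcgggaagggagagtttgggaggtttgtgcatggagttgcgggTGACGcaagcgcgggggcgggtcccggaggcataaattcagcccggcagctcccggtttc
Atf3 (chr1:191183334-191183583, minus strand): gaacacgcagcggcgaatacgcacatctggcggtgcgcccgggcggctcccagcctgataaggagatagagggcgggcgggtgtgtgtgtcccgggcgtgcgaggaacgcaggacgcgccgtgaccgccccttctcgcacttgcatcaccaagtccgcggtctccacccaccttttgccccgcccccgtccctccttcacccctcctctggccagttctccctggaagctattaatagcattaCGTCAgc
Btg2 (chr1:134079156-134079405, minus strand): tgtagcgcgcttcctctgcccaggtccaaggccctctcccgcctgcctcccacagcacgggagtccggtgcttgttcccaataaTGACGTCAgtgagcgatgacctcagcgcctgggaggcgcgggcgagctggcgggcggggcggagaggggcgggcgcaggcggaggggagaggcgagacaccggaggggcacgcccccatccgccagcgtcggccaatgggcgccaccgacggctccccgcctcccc
Fos (chr12:85473640-85473889, plus strand): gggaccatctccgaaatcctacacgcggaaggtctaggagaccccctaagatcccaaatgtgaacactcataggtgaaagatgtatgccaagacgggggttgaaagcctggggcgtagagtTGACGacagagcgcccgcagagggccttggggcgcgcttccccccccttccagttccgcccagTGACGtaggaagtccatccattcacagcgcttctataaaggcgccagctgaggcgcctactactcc
The half-site lay at -60 to -56 from the start site in Fosb, at -7 to -3 on the opposite strand in Atf3, and at -166 to -162 in Btg2, where the full element ran to -159. Fos held one at -129 to -125 and one at -66 to -62, upstream of a TATAAA at -33 to -28. Such matches are letters in a window and carry no measure of binding.

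The log2 levels had nearly the same median in every array, from 5.955 to 5.995. Mex3a, the deleted gene, was lower in every KO array than in every WT array, with means of 7.33 ± 0.22 (SD, n = 4 WT) and 6.18 ± 0.11 (SD, n = 3 KO). Its fitted difference was -1.13 (SE 0.13; limma, adjusted p = 0.142; exact permutation p = 0.0286). The arrays were scanned in 2 batches named in the labels, batch 1 with WT replicates 1 and 2 and KO replicate 1, and batch 2 with the others. Differences printed as KO minus WT come from a limma fit with scan batch as a term, so they can depart from the difference of the group means. KO replicate 1 stood apart in the difference between 3' and 5' actin probe sets, at -0.301 against -0.515 to -0.429 in the other arrays. Signal of Y-linked genes was present in 2 arrays, WT replicate 2 and KO replicate 3, at mean levels of 7.47 and 7.62. In the other arrays that mean was 4.41 to 4.53, so neither group came from a single animal.

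In the comparison of KO with WT, 0 of the 10 members passed an adjusted p of 0.05 in limma, where 0 of all 12822 genes tested did (0%). Atf3, Fosb and Btg2 were the members with unadjusted p under 0.05, all 3 with the lower mean in KO. Over all genes 4.26% were lower and 7.14% higher in KO at that level, 11.4% in all. The 3 members were not shown to stand apart from that background. Of the 10 members 8 had a negative difference, against 56.1% of all genes, and the median was -0.033 over the members and -0.019 over all genes. With WT replicate 1 left out 4 members had a negative difference, and with KO replicate 1 left out 5 did. With the mean of all probe sets of a gene, all 10 did. At unadjusted p under 0.05 the count dropped to 0 when any 1 of WT replicate 4, KO replicate 1 or KO replicate 2 was left out. In those fits 8.89%, 19.7% and 5.74% of all genes were at that level. WT and KO arrays overlapped for all 10 members, while 5.91% of genes had no overlap, 3.23% with every KO array lower and 2.68% with every KO array higher.

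**Figure D1:**
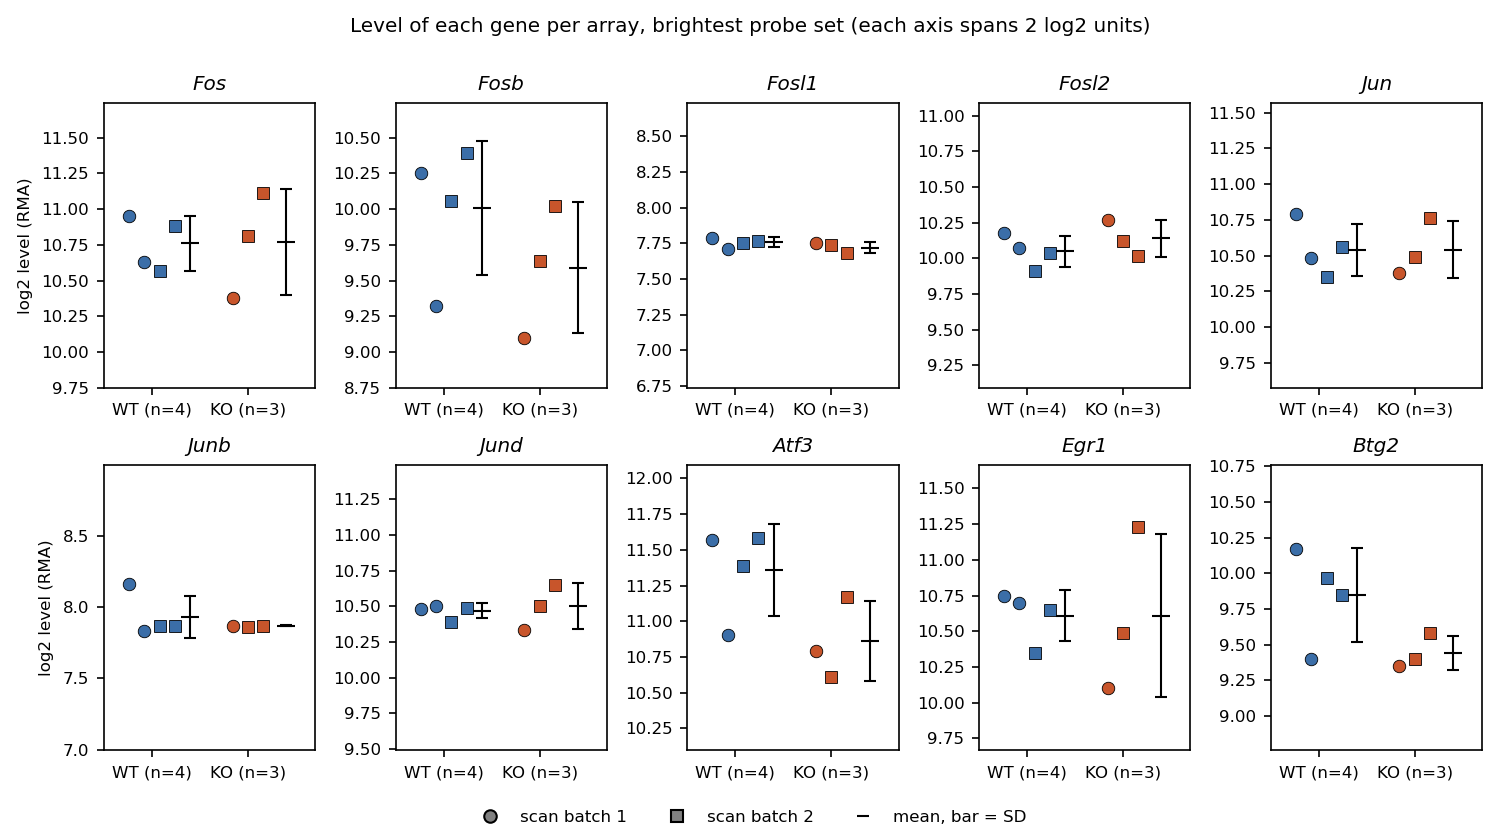
Log2 level of each of the 10 genes (vertical axis, 2 log2 units in every panel) in the 4 WT and 3 KO arrays on the brightest probe set; circles are scan batch 1, squares scan batch 2, and black bars the mean and SD. Atf3, Btg2 and Fosb have lower KO means with overlapping arrays, and Fos, Jun, Jund and Egr1 have nearly equal means.

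Atf3, a stress-induced bZIP repressor, had the smallest p of the members. Its log2 level was 11.57, 10.90, 11.39 and 11.58 in WT replicates 1 to 4 and 10.79, 10.61 and 11.17 in KO replicates 1 to 3. WT replicate 2 lay within the KO range, and the other WT arrays lay above every KO array. WT averaged 11.36 ± 0.32 (SD, n = 4) and KO 10.86 ± 0.28 (SD, n = 3). KO was thus 1.45-fold lower, by a fitted -0.54 (SE 0.18), with a limma adjusted p of 0.414. The exact permutation p, two-sided, was 0.114 over the 35 splits of the arrays and 0.111 over the 18 arrangements that keep scan batch, where the smallest possible values are 0.0286 and 0.0556. Within scan batch 1 the difference was -0.45, and within scan batch 2 it was -0.60. It was -0.39 without KO replicate 2, and -0.38 with the difference between 3' and 5' Gapdh probe sets as a covariate. When the 2 arrays with Y-linked signal were left out it was -0.84 (limma, adjusted p = 0.146, within a range of 0.052 to 0.991 over all alternatives).

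Fosb, a Fos family partner of Jun, had the widest range of the members. It stood at 10.25, 9.32, 10.06 and 10.39 in the WT arrays and at 9.10, 9.64 and 10.02 in the KO arrays. WT replicate 2 was again the low WT array, below KO replicates 2 and 3. WT averaged 10.01 ± 0.47 (SD, n = 4) and KO 9.59 ± 0.46 (SD, n = 3), with a fitted difference of -0.51 (SE 0.22) or 1.43-fold lower, with a limma adjusted p of 0.437 and an exact permutation p of 0.286. The 95% confidence interval ran from -1.03 to -0.0023. The difference was -0.69 within scan batch 1 and -0.40 within scan batch 2. It was -0.18 without KO replicate 1 when scan batch was also left out of the fit, and -0.83 when the 2 arrays with Y-linked signal were left out.

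Btg2, an antiproliferative protein that recruits the Ccr4-Not deadenylase and is also a p53 target, followed the same arrays on its brighter probe set. It read 10.17, 9.40, 9.97 and 9.85 in WT, and in KO 9.35, 9.40 and 9.58. The KO arrays lay close together, at 9.44 ± 0.12 (SD, n = 3), against 9.85 ± 0.33 (SD, n = 4) in WT, and WT replicate 2 again lay among them. The difference was -0.43 (SE 0.17) or 1.34-fold lower (limma, adjusted p = 0.420; exact permutation p = 0.143). It was -0.43 within scan batch 1 and -0.42 within scan batch 2. With a weight fitted to each array, in which KO replicate 1 had the lowest weight (0.297) and KO replicate 2 the highest (3.04), Btg2 alone of the members passed (limma, adjusted p = 0.0478), in a setting that called 1370 genes. The range of its adjusted p over all alternatives was 0.0478 to 0.991.

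The other Btg2 probe set did not show this. Its WT levels were 9.27, 8.98, 9.06 and 9.29, and its KO levels 8.64, 9.15 and 9.55, with a fitted difference of -0.088 (SE 0.17; limma, adjusted p = 0.882), and KO replicate 3 was the highest array. As the mean of both probe sets Btg2 differed by -0.26 (limma, adjusted p = 0.534). It also differed by -0.26 with the difference between 3' and 5' Gapdh probe sets, a measure of RNA quality, as a covariate (limma, adjusted p = 0.797). That Gapdh measure ran from -0.209 to -0.121 in WT and from -0.239 to -0.154 in KO, and its part in these results was not tested further.

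Within each scan batch, every KO array lay below every WT array of the same batch for 3 of the 10 members, Atf3, Fosb and Btg2. Over all genes this held for 8.58%. The reverse, KO above WT in each batch, held for 0 members and for 7.64% of genes. Batch 1 holds 1 KO array, so its part of this count rests on KO replicate 1. The counts use the brightest probe set of each gene. Of the dimmer member probe sets, only that of Jund had KO below WT in each batch.

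**Figure D2:**
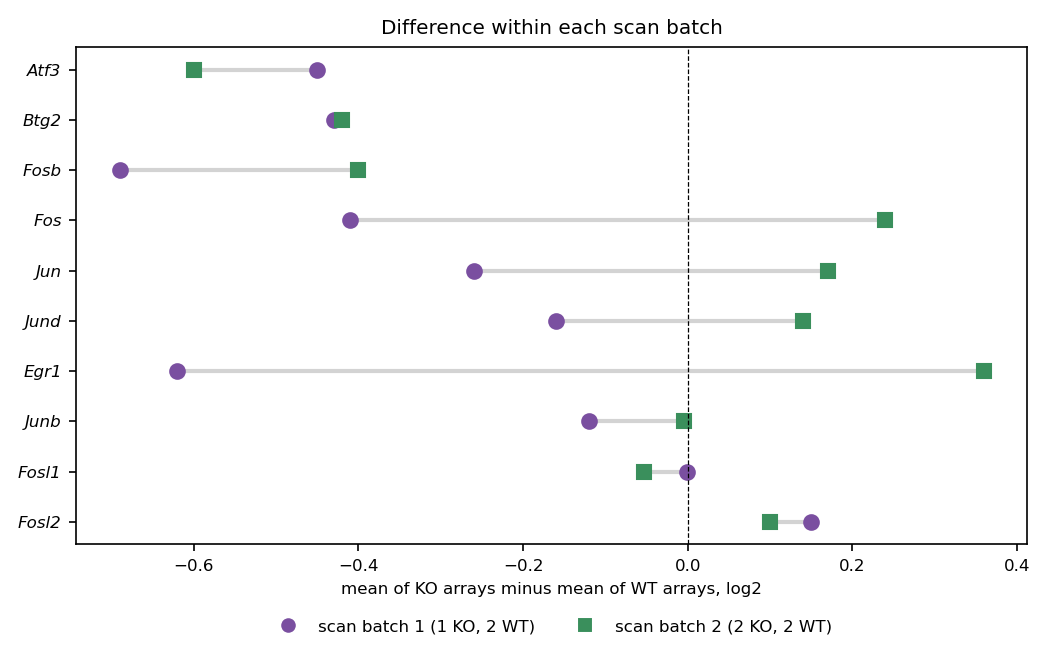
Difference of KO and WT means on the log2 scale (horizontal axis) within scan batch 1 (circles, 1 KO and 2 WT arrays) and scan batch 2 (squares, 2 KO and 2 WT arrays) for each gene on its brightest probe set. Atf3, Btg2 and Fosb lie below 0 in both batches, while Fos, Jun, Jund and Egr1 lie below 0 in batch 1 and above 0 in batch 2.

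On their brightest probe sets, Fos, Jun, Jund and Egr1 had almost equal group means, and within-batch differences of opposite sign. Fos, the founding immediate early partner of Jun, stood at 10.95, 10.63, 10.57 and 10.88 in WT and at 10.38, 10.81 and 11.11 in KO. The lowest and the highest array were both KO, replicates 1 and 3. WT averaged 10.76 ± 0.19 (SD, n = 4) and KO 10.77 ± 0.37 (SD, n = 3), with a fitted difference of -0.023 (SE 0.16; limma, adjusted p = 0.961) with a 95% confidence interval from -0.40 to 0.35. Within scan batch 1 the difference was -0.41 and within scan batch 2 it was 0.24. Without KO replicate 1 it was 0.24 and without WT replicate 1 it was 0.074.

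Egr1, a zinc finger factor and not a member of AP-1, showed the same order in KO more widely. Its levels were 10.75, 10.70, 10.35 and 10.65 in WT and 10.10, 10.49 and 11.23 in KO. The KO arrays spanned the whole range of the WT arrays and beyond on both sides, with an SD of 0.57 (n = 3) against 0.18 (n = 4) in WT. The difference was -0.033 (SE 0.24; limma, adjusted p = 0.961), with a 95% confidence interval from -0.58 to 0.52. It was -0.62 within scan batch 1 and 0.36 within scan batch 2, 0.36 without KO replicate 1, -0.32 without KO replicate 3, and between 0.023 and 0.054 without WT replicate 1, WT replicate 2 or KO replicate 2.

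Jun, the partner shared by all Fos proteins, read 10.79, 10.48, 10.35 and 10.56 in WT and 10.38, 10.49 and 10.76 in KO on its brighter probe set. WT replicate 1 and KO replicate 3 were the high arrays, and both groups averaged 10.54. The difference was -0.00077 (SE 0.13), and its interval ran from -0.30 to 0.30. Leaving out WT replicate 1, WT replicate 4, KO replicate 1 or KO replicate 2 gave a positive difference of at most 0.17. The other Jun probe set followed it closely (Pearson r = 0.91 over the 7 arrays) and differed by -0.10 (SE 0.15).

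Jund, the Jun family gene expressed without stimulation, moved little between arrays. It stood at 10.48, 10.50, 10.39 and 10.49 in WT and at 10.33, 10.50 and 10.65 in KO. Again the KO arrays set both ends. The difference was 0.018 (SE 0.083; limma, adjusted p = 0.938), and it turned negative when WT replicate 3 (-0.035) or KO replicate 3 (-0.049) was left out. Its dimmer probe set differed by -0.13 (SE 0.084), by -0.035 within scan batch 1 and by -0.20 within scan batch 2. There every KO array lay below every WT array of the same batch. Pearson r between the Jund probe sets was 0.13 over the 7 arrays.

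Junb, Fosl1 and Fosl2, like Jund, had a narrow range over the arrays. Junb, a Jun family gene that often opposes Jun, lay between 7.83 and 7.87 in 6 of the 7 arrays, and WT replicate 1 stood at 8.16. Its difference of -0.051 (SE 0.10) was 0.013 without that array. Fosl1, a Fos family gene linked to invasion, ranged over only 0.11 on the log2 scale on its brighter probe set, with means of 7.76 in WT and 7.72 in KO. On its dimmer probe set the WT levels were 5.75, 5.63, 5.52 and 5.37 and the KO levels 5.51, 5.35 and 5.44, with a fitted difference of -0.10 (SE 0.070).

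Fosl2, the other late Fos family gene, was the member with the largest positive difference. On its brighter probe set it stood at 10.18, 10.07, 9.91 and 10.04 in WT while KO stood at 10.27, 10.12 and 10.02. The fitted difference was 0.12 (SE 0.072; limma, adjusted p = 0.544) with overlapping arrays. The other probe set was at -0.12 (SE 0.11), but at -0.015 without KO replicate 1 and -0.041 without WT replicate 1, and Pearson r between the probe sets was -0.035 over the 7 arrays. Over the 15 member probe sets, 13 had a negative difference, against 58.1% of 45037 probe sets, and 3 had an unadjusted p under 0.05, against 9.39%. The count of negative differences was 8 of 15 without WT replicate 1 and also 8 when KO replicate 1 was left out.

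**Figure D3:**
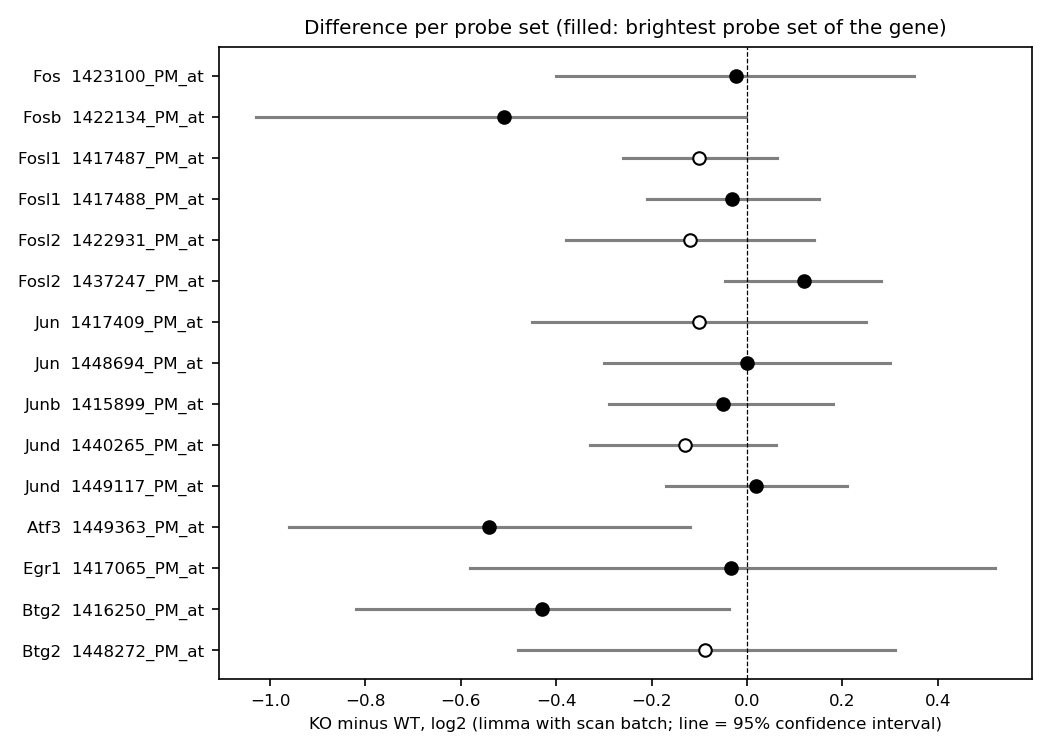
KO minus WT difference on the log2 scale (horizontal axis) for each of the 15 member probe sets, with 95% confidence intervals; filled points are the brightest probe set of a gene and open points the other. The intervals of Atf3, Fosb and the brighter Btg2 probe set end below 0, before adjustment over all probe sets, and those of the others include 0.

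The members varied by unequal amounts. Over the 7 arrays the range of Fosb was 1.29, that of Egr1 1.13 and that of Atf3 0.97 on the log2 scale, wider than for 98.6%, 97.9% and 96.3% of genes. Fosl1, Jund, Junb and Fosl2 ranged less than the median gene (0.40). Among Atf3, Btg2 and Fosb, Pearson r over the arrays was 0.91 for Atf3 and Btg2 (Spearman rho 0.79), 0.86 for Fosb and Atf3 (rho 0.89) and 0.84 for Fosb and Btg2 (rho 0.89), with exact permutation p of 0.00833, 0.0198 and 0.0252 for r and 0.0480, 0.0123 and 0.0123 for rho. Fos went with Egr1 (r = 0.89, rho 0.89) and with Jun (r = 0.88, rho 0.93), with exact permutation p of 0.00714 and 0.00675 for r and 0.0123 and 0.00675 for rho. The highest r was that of Jund and Egr1, 0.96 (rho 0.75), with exact permutation p of 0.00377 for r and 0.0663 for rho, and it was 0.70 without the 2 farthest arrays. Over the 12 pairs between Atf3, Btg2 or Fosb and Fos, Jun, Jund or Egr1, r ran from -0.036 for Jund and Btg2 (rho -0.11) to 0.70 for Fos and Fosb (rho 0.57), with exact permutation p of 0.933 and 0.0893 for r and 0.840 and 0.200 for rho. Within the sets the lowest r was 0.72, for Jun and Jund (rho 0.46; exact permutation p of 0.0492 for r and 0.302 for rho). These 2 sets were drawn after their values were seen, and the difference between them was not tested. The correlations and their permutations took no account of genotype or scan batch.

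None of the 45 pairs passed after Benjamini-Hochberg adjustment of the exact permutation p of r, where the smallest adjusted p was 0.0938. For rho the adjusted p was 0.138 for Fosb with Atf3, Fosb with Btg2, Fos with Egr1 and Fos with Jun. Without the 2 arrays farthest from the median of the first gene, r was 0.98 for Atf3 and Btg2, 0.97 for Fosb and Atf3, 0.76 for Fosb and Btg2, 0.86 for Fos and Jun, 0.59 for Fos and Egr1, and 0.55 for Fos and Fosb. The batches hold 3 and 4 arrays, too few for a value within each.

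Among all genes tested, the levels most like those of Fos over the 7 arrays were those of Ier2 (r = 0.982), itself an immediate early gene, Zfp945 (0.981) and Plk2 (0.973), an inducible polo-like kinase. For Egr1 they were Fam111a (0.977), Cryzl2 (0.975) and the cell cycle inhibitor Cdkn1a (0.968). Each of these 6 genes was lowest in KO replicate 1 and highest in KO replicate 3. Cdkn1a ranged only from 10.72 to 10.93, while Plk2 ranged from 7.71 to 8.74. With 12822 genes and 7 arrays, values of this size describe the arrays and carry no test.

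The 10 members together were lowest in KO replicate 1, where their mean was 0.25 under their average over all arrays (a deviation of -0.25), and 5 of 10 had their lowest value there. They were highest in WT replicate 1 (0.23), followed by WT replicate 4 and KO replicate 3 (both 0.13). WT replicate 2 (-0.12), KO replicate 2 (-0.11) and WT replicate 3 (-0.014) lay between. The 2 ends were thus 1 array of each genotype, both from scan batch 1.

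Genes of the heat shock response, which together with the members are known as markers of tissue dissociation, had values on both sides of 0. Of 20 listed, 16 were tested, 7 lower and 9 higher in KO, with a median of 0.040, and 0 passed in limma. In this list and those that follow, genes not tested lay below the level filter or had no probe set with exactly 1 symbol. At unadjusted p under 0.05 there was 1 of the 16, Dnajb4, against 11.4% of all genes in either direction. Dnajb4, an Hsp70 co-chaperone, was higher in KO, at 7.67, 7.59 and 7.95 against 7.23, 7.42, 6.90 and 6.85 in WT, without overlap. Its difference was 0.68 (SE 0.15, limma adjusted p = 0.335). Hsp90aa1, the inducible cytosolic Hsp90, was lower in every KO array than in every WT array by a small amount (-0.14, SE 0.071; limma, adjusted p = 0.467). Hsph1, Dnajb1 and Hspb1, chaperones of the same response, differed by -0.20 (SE 0.10), -0.15 (SE 0.089) and -0.15 (SE 0.093). Hsph1 was at -0.10 without WT replicate 4. Dnajb1 was at -0.057 without KO replicate 1 and at -0.25 without KO replicate 3. Hspb1 was at -0.065 without KO replicate 2 and at -0.076 without WT replicate 4. Dnajb4 was at 0.24 as the mean of its probe sets, at 0.34 within scan batch 1 and at 0.44 with the Gapdh covariate.

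For the 16 heat shock genes the mean deviation from their average was 0.023, 0.10, -0.13 and -0.055 in WT replicates 1 to 4, and in KO replicates 1 to 3 it was -0.049, 0.011 and 0.10. The groups overlapped. The order of KO replicate 1 lowest and KO replicate 3 highest of all arrays was shown by 3 of the 10 members (Fos, Jund and Egr1), by 2 of these 16 genes and by 2.49% of all genes. The 2 were Dnajb1 and Hspa1b, an inducible Hsp70 gene named after its values were seen. The order itself was chosen after the values of Fos and Egr1 were seen, so its count among the members carries no test. Hspa1b deviated from its mean by -0.199, -0.103, -0.137 and 0.033 in WT, and by -0.244, 0.135 and 0.514 in KO. With the mean deviation of the 16 heat shock genes as a covariate, Atf3 differed by -0.53 (limma, adjusted p = 0.435), Fosb by -0.54 (adjusted p = 0.464) and Btg2 by -0.40 (adjusted p = 0.472). Fos differed by -0.12 (adjusted p = 0.746) and Egr1 by -0.21 (adjusted p = 0.578) in that fit. Over all alternatives the adjusted p ran from 0.147 to 0.991 for Fosb, from 0.375 to 0.991 for Fos and from 0.418 to 0.999 for Egr1. The length of digestion of each sample was not given in the sources used here, and the part of dissociation in the member values was not tested.

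**Figure D4:**
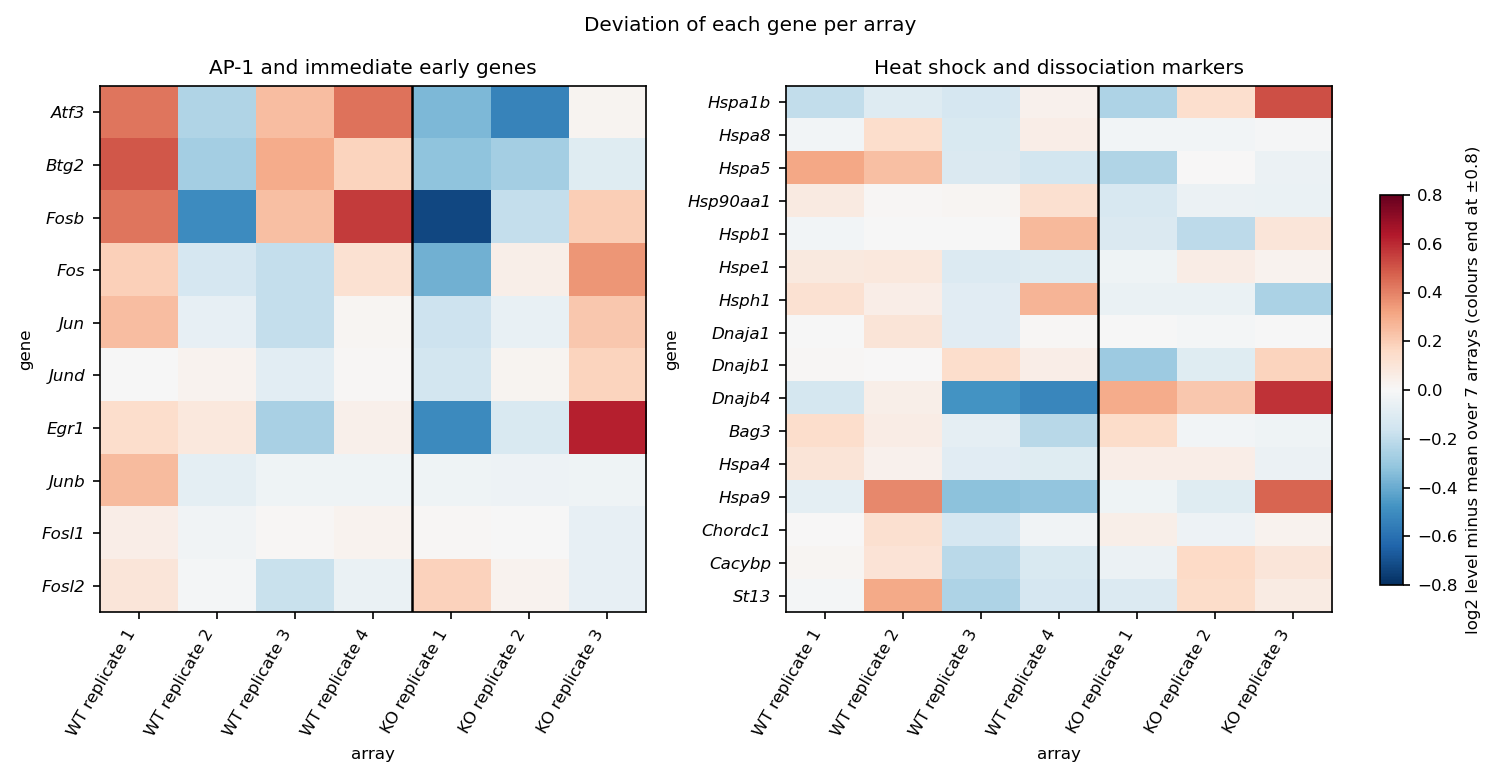
Log2 level minus the gene's mean over the 7 arrays (colour) for the 10 genes (left) and the 16 heat shock and dissociation markers tested (right), with arrays in columns and a line between WT and KO. Atf3, Btg2 and Fosb are low in WT replicate 2 and in KO replicates 1 and 2, and Fos, Jun, Jund and Egr1 are highest among the KO arrays in replicate 3. Among the heat shock markers Hspa1b and Dnajb1 are lowest in KO replicate 1 and highest in KO replicate 3.

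Other immediate early genes lay on both sides of 0. Of 45 listed 39 were tested, 23 lower and 16 higher in KO, with a median of -0.022, and 0 passed in limma. Their mean deviation was 0.053, -0.014, -0.062 and 0.0025 in WT, and in KO it was -0.16, 0.0094 and 0.17. KO replicates 1 and 3 set both ends, as for Fos and Egr1. At unadjusted p under 0.05 there were 2 of the 39, both higher in KO, against 11.4% of all genes in either direction. Zfp36l2, which promotes decay of AU-rich transcripts, read 8.41, 8.81 and 8.75 in KO and 7.91, 8.56, 8.13 and 7.70 in WT (difference 0.59, SE 0.21; limma, adjusted p = 0.414). Klf10, a TGF-beta-inducible repressor, differed by 0.34 (SE 0.12; adjusted p = 0.414), with WT replicate 2 at 10.06 inside the KO range. The paralog Zfp36l1, Tob1 and the NF-kB inhibitor Tnfaip3 differed by 0.24 (SE 0.11), 0.30 (SE 0.14) and 0.28 (SE 0.14). Single arrays moved these values: without KO replicate 1 Tob1 was at 0.074 and Tnfaip3 at 0.48, and without WT replicate 3 Zfp36l1 was at 0.13 and Tnfaip3 at 0.14, with 0.18 for Tnfaip3 without KO replicate 3. Zfp36l2 was at 0.17 within scan batch 1, at 0.87 within scan batch 2 and at 0.24 with the Gapdh covariate, with which Klf10 was at 0.20.

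Other bZIP factors that can pair with or act beside AP-1 lay on both sides of 0. Of 24 listed 20 were tested, 14 higher and 6 lower (43.9% of all genes were higher), 2 of them higher at unadjusted p under 0.05 (7.14% of all genes), with a median of 0.058, and 0 passed in limma. Atf1, a Creb family activator, read 8.60, 8.54 and 8.64 in KO and 8.37, 8.48, 8.12 and 8.19 in WT, without overlap (difference 0.33, SE 0.10; limma, adjusted p = 0.388). Creb3, a membrane-bound bZIP factor, differed by 0.22 (SE 0.074; adjusted p = 0.414), and Atf7 by -0.28 (SE 0.13; adjusted p = 0.462). Atf7 was at -0.16 without KO replicate 3, at -0.43 without KO replicate 1 and at -0.061 with the Gapdh covariate. Within scan batch 1 Atf1 was at 0.17 and Creb3 at 0.14.

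Of 23 kinases and factors upstream of AP-1, 12 were tested, 5 lower and 7 higher, and 0 passed in limma. Unadjusted p was under 0.05 for 2 lower and 2 higher genes, against 4.26% and 7.14% of all genes. The 3 of smallest p are described. Map2k3, a kinase that activates p38, read 10.48, 10.42, 10.71 and 10.52 in WT and 9.98, 10.21 and 10.21 in KO, without overlap (difference -0.43, SE 0.070, or 1.35-fold lower; limma, adjusted p = 0.329). Its exact permutation p was 0.0286, the smallest possible, before any adjustment. As the mean of its probe sets it was at -0.15. Map3k5 and Map3k1, kinases at the top of the stress cascade, had the opposite sign, 0.40 (SE 0.11; adjusted p = 0.388) and 0.27 (SE 0.087; adjusted p = 0.409). Map3k5 was at 0.19 as the mean of its probe sets and at 0.15 within scan batch 1, and Map3k1 at 0.10 with KO replicate 1 and the batch term left out.

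Of 13 genes of AP-1 inhibition and turnover 6 were tested, 5 higher and 1 lower (43.9% of all genes were higher), with 0 passing. Unadjusted p was under 0.05 for 1 higher gene and 0 lower ones, against 7.14% and 4.26% of all genes. Nab1, a corepressor of Egr1, read 8.89, 8.79 and 8.74 in KO and 8.05, 8.50, 8.25 and 8.22 in WT, without overlap (difference 0.57, SE 0.12, or 1.48-fold higher; limma, adjusted p = 0.329). Men1, which encodes the Jund-binding protein menin, differed by -0.12 (SE 0.11), and Cops5, a Jun coactivator, by 0.083 (SE 0.075). As the mean of their probe sets Nab1 was at 0.32 and Men1 at -0.025. Men1 was at -0.055 without WT replicate 3 and at -0.19 without WT replicate 4, and Cops5 at 0.043 without WT replicate 4.

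Known AP-1 targets had values on both sides of 0, more of them below it. Of 28 listed 18 were tested, 14 lower and 4 higher in KO, with a median of -0.075, against 56.1% lower over all genes, and 0 passed in limma. Unadjusted p was under 0.05 for 2 lower genes and 1 higher gene, against 4.26% and 7.14% of all genes. Mmp14, a membrane-bound matrix protease, read 10.53, 10.39, 10.92 and 10.55 in WT and 10.15, 10.37 and 10.23 in KO (difference -0.38, SE 0.10; adjusted p = 0.388). Uck2, a uridine kinase, differed by -0.32 (SE 0.10; adjusted p = 0.409), by -0.036 as the mean of its probe sets, and by -0.16 with the Gapdh covariate. Mmp7, the protease matrilysin of intestinal tumours, was higher in every KO array, at 11.08, 11.15 and 11.25 against 10.98, 11.02, 11.06 and 10.75 (difference 0.21, SE 0.089; adjusted p = 0.437), and its difference was 0.11 without WT replicate 4, 0.074 within scan batch 1 and 0.12 with the Gapdh covariate.

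Of the 9 genes of the Btg and Tob family and its deadenylase partners, all were tested, 4 lower and 5 higher. Unadjusted p was under 0.05 for 1 lower gene, the member Btg2 itself, and for 1 higher gene, against 4.26% and 7.14% of all genes. Cnot7, a deadenylase bound by Btg2, differed by 0.40 (SE 0.12; limma, adjusted p = 0.404), while its KO and WT arrays overlapped because WT replicates 1 and 2 read 9.11 and 9.19 against 8.29 and 8.50 in replicates 3 and 4. Its difference was 0.10 within scan batch 1 and 0.23 with the Gapdh covariate. With array weights 14 of the 29 genes named outside the members, Mex3a aside, passed, among them Map2k3 (limma, adjusted p = 0.0269), Dnajb4 (0.0269) and Uck2 (0.0321), and their adjusted p over all alternatives reached 0.991.

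**Figure D5:**
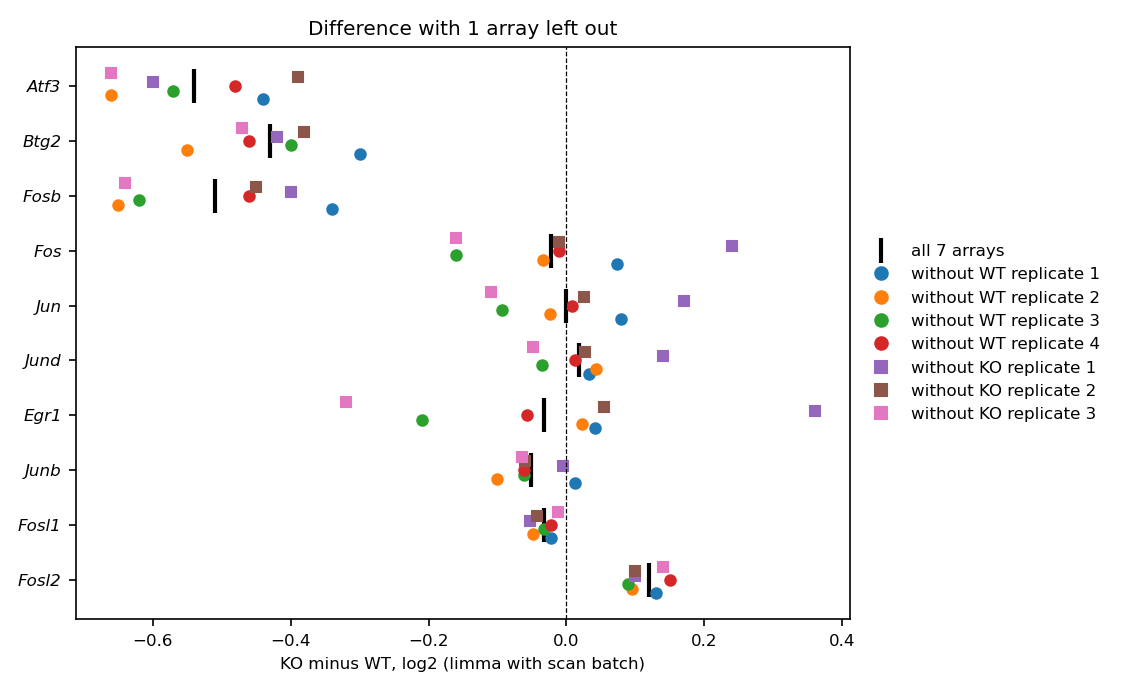
KO minus WT difference on the log2 scale (horizontal axis) for each gene with all 7 arrays (black bar) and with each array left out in turn (points, WT arrays as circles and KO arrays as squares). Atf3, Btg2 and Fosb stay below 0, between -0.66 and -0.30, while Egr1 runs from -0.32 to 0.36 and Fos from -0.16 to 0.24.

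Cell type markers bear on which cells were in the sort. In bulk samples, fewer cells of a type and less RNA per cell cannot be told apart. Epithelial markers averaged 10.07 to 10.27 over 14 tested genes in WT and 10.03 to 10.42 in KO. Of the leukocyte markers 13 of 21 were tested, with means of 6.73 to 6.88 in WT and 6.75 to 6.95 in KO. The defining leukocyte gene Ptprc lay below the level filter, while Csf1r, Tyrobp and Laptm5 were among those above it. Endothelial markers (8 of 12 tested) averaged 6.10 to 6.21 and 6.08 to 6.15. Fibroblast markers (9 of 15 tested) were the most uneven, at 7.51 to 8.17 in WT and 7.51 to 8.28 in KO, with WT replicate 3 and KO replicate 2 highest. Pdgfra and Col1a2 lay below the filter, while Col1a1, Col3a1 and Pdgfrb were among those above it. The part of these markers in the member values was not tested.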

How the data were processed

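Expression was measured on 7 Affymetrix arrays, 4 WT and 3 KO, from RNA of 2000 sorted cells amplified over 24 cycles, per the labels' protocols. The authors deposited a log2 value for every probe set and array, computed by RMA per the submitters' processing notes (version not given in the sources used here), and these values were used unchanged. Probe sets with exactly 1 symbol in the platform annotation were named (28898 of 45141). For each of 17097 genes the brightest probe set was kept and the lowest 25% by mean level (5.28 or below) were left out. The genotype contrast was fitted with limma 3.58.1 under R 4.3.3, with scan batch as a covariate, a trend on mean level and Benjamini-Hochberg adjustment over 12822 genes; a fit over 45037 probe sets gave each probe set. The fit left 4 residual degrees of freedom and was tested on simulated data. Single values were compared by exact permutation over 35 splits.

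The members and lists were chosen with earlier results of these data known. Genes named are Mex3a, the members, the 3 genes of smallest p in each list (5 for heat shock and for other immediate early genes), and the 3 genes most like Fos and Egr1; cell type markers were named by role. There were 20 other settings, and 1 more was chosen after seeing the data (KO replicate 1 and the batch term left out). The number of arrays limits the precision.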

Additional observations from a re-analysis of the deposited data

Results flagged for a closer look

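In 4 of 45 sets of WT values tested, 1 of the 4 WT arrays lay far from the other 3; chance flags about 1 in 20 such groups. WT replicate 1 stood at 10.10 for the dimmer Jun probe set, with the other WT arrays at 9.70 to 9.76. WT replicate 1 also stood at 8.16 for Junb, with the others at 7.83 to 7.87. WT replicate 2 stood at 10.06 for Klf10, with the others at 9.54 to 9.62, and WT replicate 4 at 11.18 for Hspb1, with the others at 10.90 to 10.92.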

How the results depend on the processing

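No paired analysis was possible because the labels give the arrays no replicate numbers shared between groups. Atf3, Fosb and Btg2 kept a negative difference in all 21 alternatives, while 7 of the 10 members turned sign at least once. Settings of the trend, level filter or choice of probe set could not change the estimates of Atf3 (-0.54) and Fosb (-0.51), with 1 probe set each. The single-batch settings repeat the within-batch differences given above. The second Btg2 probe set turned sign in 5 of its 17 alternatives. The count of genes called was 0 to 2 with 1 array left out (2 without WT replicate 2, 2 without WT replicate 4) and 1370 with array weights; in probe sets it was 0 to 1 with 1 array left out and 1 without KO replicate 1 and the batch term. Array weights called 1 member (Btg2), 5 other immediate early genes and 1 heat shock marker. The count of members with a negative difference was 4 to 9 with 1 array left out, and 5 with array weights, in scan batch 2 alone and without KO replicate 1 and the batch term. Members at unadjusted p under 0.05 numbered 0 to 3 with 1 array left out, against 5.57% to 19.7% of all genes. They numbered 1 with the mean of all probe sets (11% of all genes) and with the heat shock covariate (10.9%). The number was 0 with the Gapdh covariate (7.86%) and without KO replicate 1 and the batch term (8.31%).

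With 1 array left out the difference ran from -0.16 to 0.24 for Fos, -0.11 to 0.17 for Jun, -0.10 to 0.013 for Junb, -0.049 to 0.14 for Jund, -0.32 to 0.36 for Egr1, -0.25 to 0.093 for the second Jun and -0.25 to 0.17 for the second Btg2 probe set, -0.17 to 0.15 for Ier2, -0.13 to 0.27 for Zfp945, -0.29 to 0.33 for Plk2, -0.18 to 0.17 for Fam111a, -0.067 to 0.16 for Cryzl2 and -0.076 to 0.053 for Cdkn1a. In scan batch 2 alone the sign turned for Fos (0.24), Jun (0.17, second probe set 0.093), Egr1 (0.36), the second Btg2 probe set (0.17), Ier2 (0.15), Zfp945 (0.27), Plk2 (0.33), Fam111a (0.17) and Cdkn1a (0.053). With array weights it turned for Fos (0.18), Jun (0.12), Egr1 (0.20), the second Btg2 probe set (0.069), Ier2 (0.11), Zfp945 (0.18), Plk2 (0.26), Fam111a (0.070) and Cdkn1a (0.019). Without KO replicate 1 and the batch term it turned for Fos (0.20), Jun (0.079, second probe set 0.016), Egr1 (0.25), the second Btg2 probe set (0.20), Ier2 (0.10), Zfp945 (0.22), Plk2 (0.25), Fam111a (0.14) and Cdkn1a (0.029). In scan batch 1 alone it turned for Jund (-0.16), Tnfaip3 (-0.020) and Cryzl2 (-0.18). It turned with no batch term for Fos (0.010) and Zfp945 (0.023), and with centred arrays for Jun (0.011) and Zfp945 (0.0044). With the mean of all probe sets it turned for Fosl2 (-0.0013) and Jund (-0.057), and with the most variable probe set per gene for Fosl2 (-0.12) and Jund (-0.13). With the Gapdh covariate it turned for Fosl1 (0.0064), Jund (-0.087) and Cryzl2 (-0.073), with the heat shock covariate for Jund (-0.033) and Cryzl2 (-0.030), and on arrays without Y-linked signal for Jund (-0.028) and Cryzl2 (-0.068). The cause was not tested.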
